A study of Mus musculus with 9 samples.

Results

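Natural killer T cells of the invariant kind (iNKT cells) are T cells that read lipids presented by CD1d. Their iNKT1 subset expresses the transcription factor T-bet and carries lytic granules. The genes described here encode the granule exocytosis machinery of such cells: Rab27a, Unc13d, Stx11, Stxbp2, Lamp1, Vamp7, Vamp8, Stx7 and Lyst. These 9 genes were listed by name for their roles in docking, priming and fusion of granules, and 8 of them were found by symbol among the 14004 genes of the deposited table. Vamp7 was not analysed here. RNA-seq libraries came from iNKT1 cells of the thymus, the liver and the spleen, with 3 libraries per tissue and 9 in all. Whether the replicates of a tissue came from separate mice is not given in the sources used here, so p-values measure only the spread between these libraries. All mice were untreated C57BL/6 animals of the genotype Tbx21CreTg;Rosa26-LSL-YFP+/+, so the Cre recombinase driven by Tbx21, the T-bet gene, and the YFP reporter were shared by every group. A cell that expresses T-bet now, or did so earlier, can carry this reporter, which is therefore not restricted to iNKT1 cells. The age of the mice and the sorting gate are not given in the sources used here.

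Cytotoxic lymphocytes kill by moving lytic granules to the contact with a target cell and fusing them with the plasma membrane. The small GTPase Rab27a tethers granules at the membrane, and Munc13-4, the product of Unc13d, primes them for fusion. Syntaxin 11 (Stx11) and its partner Munc18-2 (Stxbp2) act on the membrane side of the fusion complex, where vesicle SNAREs such as VAMP7 and VAMP8 pair with syntaxins. Lyst controls the size and maturation of lysosome-related granules. In humans, loss of RAB27A, UNC13D, STX11, STXBP2 or LYST leads to familial disorders of lymphocyte cytotoxicity.

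Sequences just before an annotated transcription start are shown for 4 members. They were chosen because in these genes all libraries of one tissue lay on the same side of those of another. By comparison and direction, 5.73% to 9.61% of all genes did so. Each sequence is the 150 bases before an annotated RefSeq start, 5' to 3' on the strand of the gene, in build GRCm38.p6. Capitals mark CACGTG, the E-box core bound by TFEB and its relatives at lysosomal genes, and GGGCGG, the GC box. The regions are chr8:13159011-13159160 on the plus strand for Lamp1, chr8:3630959-3631108 on the plus strand for Stxbp2, chr10:12964260-12964409 on the minus strand for Stx11 and chr13:13590259-13590408 on the plus strand for Lyst.
Lamp1: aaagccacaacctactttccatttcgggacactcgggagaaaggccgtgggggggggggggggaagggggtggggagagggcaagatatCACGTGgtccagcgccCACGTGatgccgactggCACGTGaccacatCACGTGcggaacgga
Stxbp2: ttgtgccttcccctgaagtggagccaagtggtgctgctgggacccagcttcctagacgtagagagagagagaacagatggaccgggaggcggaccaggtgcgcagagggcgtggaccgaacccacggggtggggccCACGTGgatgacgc
Stx11: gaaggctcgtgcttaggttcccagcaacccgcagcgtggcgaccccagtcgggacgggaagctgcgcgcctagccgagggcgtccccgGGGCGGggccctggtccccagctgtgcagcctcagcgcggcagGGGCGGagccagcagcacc
Lyst: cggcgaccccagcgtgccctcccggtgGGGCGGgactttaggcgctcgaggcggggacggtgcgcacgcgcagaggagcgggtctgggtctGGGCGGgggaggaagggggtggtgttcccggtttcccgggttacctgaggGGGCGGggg

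The Lamp1 window held CACGTG at 4 places, with the first letter 61, 45, 28 and 15 bases before the start. Of 27025 genes with a promoter in the RefSeq table, 5 had 4 or more copies of CACGTG in the 250 bases before a start. Lamp1 is among these 5, and the cutoff of 4 is its own count. Stxbp2 held 1 copy in its window, 14 bases before the RefSeq start, while the windows of Stx11 and Lyst held none and had 2 and 3 GC boxes. By the GENCODE gene positions given below, the Stxbp2 window, with its E-box, lies wholly inside the gene. Those of Stx11 and Lyst lie partly inside, and that of Lamp1 lies outside. The motifs below were searched on both strands in the 250 bases before each start, for the 7 members with an entry. Counts of members are by gene, over any of their 9 promoters, whereas the shares of all are by promoter. CACGTG was found in 3 of the 7 genes (Lamp1, Stxbp2 and, at one of its annotated starts, Rab27a) and in 6.02% of all 32851 promoters. The GC box GGGCGG was found in 3 (Lyst, Rab27a and Stx11), against 32.7% of all. The T-box half-site TCACACCT was found in Rab27a alone (1.12% of all), the RUNX motif TGTGGT in Lamp1 and Rab27a (14.0% of all), and the ETS motif CCGGAAGT in no member (2.88% of all). A match describes letters only. The TGTGGT match of Lamp1, on the opposite strand, lies between the last pair of its E-boxes and overlaps neither.

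The deposited values are normalised read counts, whose scaling is not given in the sources used here. The steps between low values gave 18506598 to 39568081 reads per library, except for 3878084 in liver replicate 3. Its values therefore carry the most counting error. Xist was at 84543 or more in the libraries numbered 2 of the 3 tissues and at most 16531 in the other 6. The labelled cell type was checked on 9 genes of iNKT1 cells (Cd3e, Cd3g, Zbtb16, Tbx21, Il2rb, Klrb1c, Cxcr3, Klrd1 and Nkg7), all of which were measured. Their summed level was 114778 to 163398 in thymus, 156291 to 170708 in liver and 96471 to 116308 in spleen libraries. Cd3e and Il2rb had the highest values of the 9 genes in every library, so the sum mostly follows them. Single genes moved in opposite directions. Klrd1 was at 13285 to 20458 in thymus, 2565 to 4044 in liver and 2173 to 3420 in spleen. Il2rb was at 36385 to 40797 in thymus and 61549 to 71230 in liver. Genes of other cells were low but moved with tissue or library. The 6 hepatocyte genes measured of 7 listed summed to 1390 to 1717 in liver, 110 to 868 in thymus and 0.525 to 40.5 in spleen. The thymus sums were mostly Trf, at 110, 598 and 205 there against 7.69 to 43.5 in liver. Alb was at 1172 to 1588 in liver and had 0, 232 and 67 reads in thymus replicates 1, 2 and 3. The 4 myeloid genes measured of 9 summed to 1852 in spleen replicate 1 and to at most 456 elsewhere. The 5 B cell genes measured of 6 summed to 11124 in spleen replicate 1 and to 3157 to 9367 elsewhere. Of these, Cd79a was at 625 in spleen replicate 1 and had no read in the thymus libraries. The 4 immature thymocyte genes measured of 6 summed to 679 in thymus replicate 3, where Rag1 was at 486, and to at most 40.9 elsewhere. Of 4 endothelial genes listed, Pecam1 was measured, at 71.7 to 302 in thymus, 458 to 671 in liver and 394 to 1335 in spleen libraries. Of 5 mast cell and basophil genes, Cpa3 was measured, with 0 reads in each thymus library and 3 to 110 in each of the others. The other genes of both lists (Cdh5, Kdr and Stab2, and Mcpt4, Mcpt8, Fcer1a and Kit) were absent from the deposited table. Why they were absent is not given in the sources used here. The 6 erythroid and platelet genes measured of 7 summed to 4.79 to 480 with overlap of the tissues.

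No member passed the threshold in any comparison of tissues. The test was limma-trend on log2(value + 1), with p-values adjusted by Benjamini-Hochberg over 13309 genes and a threshold of 0.05. Liver vs thymus called 0 of 8 members and 0.323% of all genes. Spleen vs thymus called 0 of 8 and 0.398%, liver vs spleen 0 of 8 and 0.015%, and the F-test of any difference among the tissues 0 of 8 and 0.346%. At an unadjusted p under 0.05, Lyst and Stx11 stood out in liver vs thymus, 2 of 8 members against 11.6% of all genes. The same pair did so in spleen vs thymus (11.7% of all genes) and in the F-test (9.95%), and 0 members did so in liver vs spleen (3.03%). On reads recovered from the value steps, edgeR's quasi-likelihood test and DESeq2 also called 0 members in all of these comparisons. At an unadjusted p under 0.05, edgeR had Lyst in both thymus comparisons. DESeq2 had Lyst and Stx11 in liver vs thymus and Stx11 in spleen vs thymus. In bulk samples, fewer cells that express a gene and less RNA per cell cannot be told apart.

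The values by library differed in pattern from gene to gene. In liver vs thymus, 2 of 8 members had non-overlapping values that were higher in liver, Lamp1 and Lyst, where 9.61% of all genes did so. None was lower without overlap (5.73% of all genes). In spleen vs thymus, 2 of 8 did so, Lamp1 and Stx11 (9.29% of all genes higher, 6.03% lower). In liver vs spleen, 1 of 8 was lower in liver without overlap, Stxbp2 (6.77% of all genes lower, 5.97% higher). The median log2 fold change of the 8 members was 0.53 in liver vs thymus, beside 0.29 over all genes. It was 0.60 in spleen vs thymus, beside 0.33, and 0.05 in liver vs spleen, beside -0.02. Both thymus comparisons share the thymus libraries, and the median of all genes moved with the scaling, to 0.04 in each of them under TMM factors and to 0.43 and 0.48 with equal library totals.

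**Figure D1:**
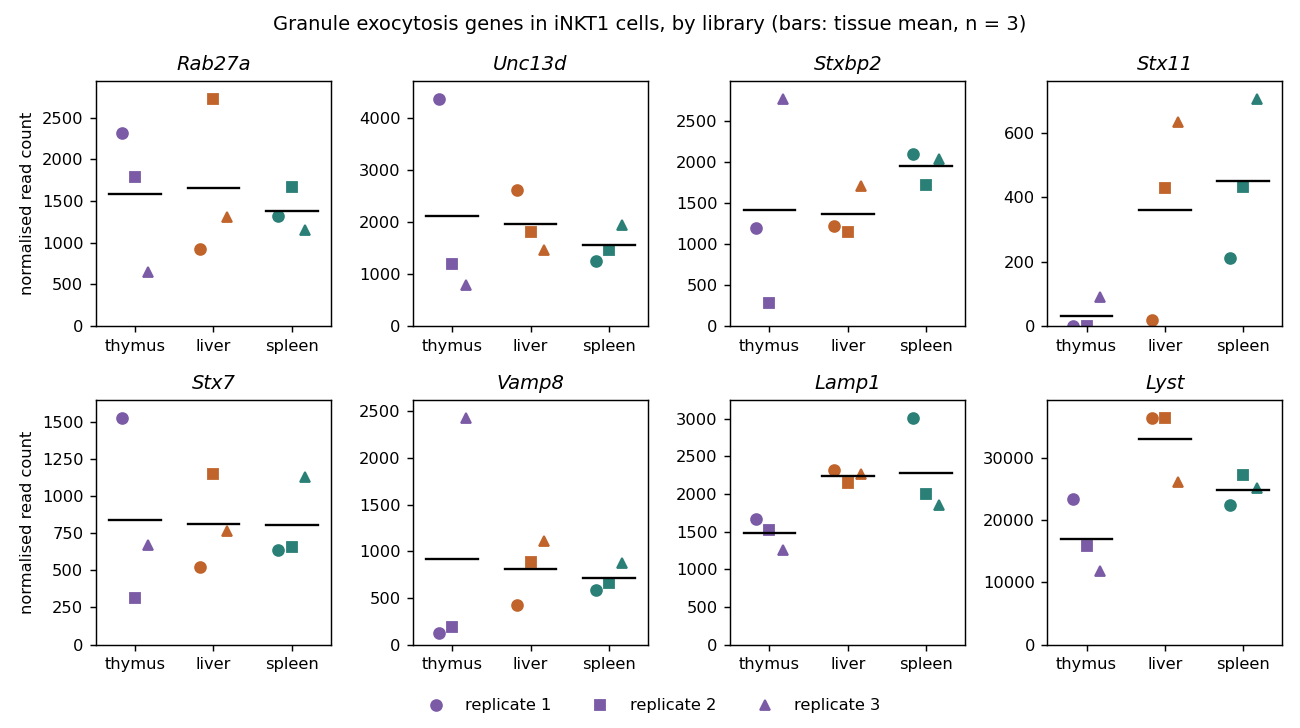
Normalised read count (linear axis from 0) of the 8 members in each library of iNKT1 cells, by tissue; marker shape gives the replicate and the black bar the mean of 3 libraries. Lamp1 was at most 1661 in the thymus libraries and at least 1846 in all others, while the highest value of Unc13d was in thymus replicate 1 and those of Stxbp2 and Vamp8 in thymus replicate 3.

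Rab27a (ENSMUSG00000032202, chromosome 9, 73044854 to 73097629, plus strand), the GTPase that docks granules, was at 2310, 1792 and 653 in thymus replicates 1, 2 and 3. It was at 928, 2722 and 1303 in the liver replicates and at 1326, 1668 and 1146 in the spleen replicates. The 3 tissues overlapped entirely, with the thymus and the liver both wider than the spleen. The means were 1585 ± 848 in thymus, 1651 ± 946 in liver and 1380 ± 265 in spleen (SD, n = 3 each). The log2 fold change was 0.09 in liver vs thymus, with a 95% interval from -1.10 to 1.29 (limma-trend adjusted p 0.967). In spleen vs thymus it was -0.03, from -1.23 to 1.17 (limma-trend adjusted p 0.989). The intervals thus included changes of more than 2-fold either way.

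Unc13d (ENSMUSG00000057948, chromosome 11, 116062095 to 116077961, minus strand), which encodes the priming factor Munc13-4, was at 4370, 1195 and 786 in the thymus replicates. It was at 2623, 1815 and 1473 in liver and at 1249, 1463 and 1948 in spleen. Thymus replicate 1 was the highest of the 9 libraries and thymus replicate 3 the lowest, 5.56-fold apart, so that the thymus range enclosed both other tissues. The log2 fold change was 0.26 in liver vs thymus (95% interval -0.95 to 1.47, limma-trend adjusted p 0.898) and -0.07 in spleen vs thymus (-1.28 to 1.14, limma-trend adjusted p 0.978). By means, Unc13d was lower in both than in thymus, at 1970 ± 591 in liver and 1553 ± 358 in spleen against 2117 ± 1962 (SD, n = 3 each). In liver the sign on the log scale thus differed from that of the means.

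Stxbp2 (ENSMUSG00000004626, chromosome 8, 3630955 to 3643644, plus strand), which encodes the syntaxin 11 partner Munc18-2, was at 1195, 285 and 2769 in the thymus replicates. It was at 1224, 1153 and 1708 in liver and at 2095, 1724 and 2035 in spleen. Thymus replicates 2 and 3 were the lowest and the highest of all libraries, 9.73-fold apart, while the lowest spleen library was just above the highest liver library. The means were 1951 ± 199 in spleen and 1362 ± 302 in liver (SD, n = 3 each), 1.43-fold apart. The log2 fold change in liver vs spleen was -0.54 (SE 0.66, 95% interval -1.93 to 0.86, limma-trend adjusted p 0.9999). The interval rests on a spread that includes the thymus libraries.

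Stx11 (ENSMUSG00000039232, chromosome 10, 12938209 to 12964298, minus strand), which encodes syntaxin 11, had no read in thymus replicates 1 and 2 and 71 reads in thymus replicate 3, a value of 89.1. It was at 17.4, 428 and 635 in the liver replicates, from 20, 499 and 105 reads. In spleen it was at 212, 432 and 706, from 284, 628 and 1176 reads. All spleen libraries were above all thymus libraries, while liver replicate 1 fell between the thymus libraries. The means were 29.7 ± 51.4 in thymus, 360 ± 315 in liver and 450 ± 248 in spleen (SD, n = 3 each), 12.1-fold higher in liver and 15.1-fold higher in spleen than in thymus. The log2 fold change was 6.46 in spleen vs thymus (SE 1.98, 95% interval 2.26 to 10.67, limma-trend adjusted p 0.211). In liver vs thymus it was 5.23 (1.03 to 9.44, limma-trend adjusted p 0.317). Because no read was found in 2 thymus libraries, these fitted values depend on the pseudocount and are no bound. Without thymus replicate 3 the spleen vs thymus difference passed, at 8.62 with a limma-trend adjusted p of 0.0463, and over 23 alternatives the adjusted p ran from there to 0.56. Thymus replicate 3 was also the library with Rag1, and spleen replicate 1, which had the most myeloid RNA, had the lowest Stx11 of the spleen libraries. Liver replicate 3, which had the most myeloid RNA of the liver libraries, had their highest. Pecam1 and Cpa3 were, like Stx11, above all thymus libraries in every spleen library. Each is the only gene of its cell type list in the deposited table, from which the more of those lists was absent. The part of other cells in these values was not tested.

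Stx7 (ENSMUSG00000019998, chromosome 10, 24149302 to 24190222, plus strand), a syntaxin of late endosomes and lysosomes, was at 1527, 315 and 667 in thymus. It was at 521, 1148 and 763 in liver and at 634, 656 and 1127 in spleen. The tissue means were close, at 836 ± 624, 811 ± 316 and 806 ± 279 in that order (SD, n = 3 each), and the thymus range again enclosed the others. In no comparison did the log2 fold change exceed 0.18 (95% intervals from -1.45 to 1.62, limma-trend adjusted p 0.946 or more). This width leaves a difference of 2-fold undetectable with these libraries.

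Vamp8 (ENSMUSG00000050732, chromosome 6, 72385223 to 72390703, minus strand), which encodes a vesicle SNARE, was at 120, 183 and 2432 in thymus. It was at 425, 885 and 1109 in liver and at 588, 664 and 874 in spleen. Thymus replicate 3 had the highest value of the 9 libraries and thymus replicate 1 the lowest, 20.3-fold apart. Without thymus replicate 3 the log2 fold change was 2.33 in liver vs thymus and 2.23 in spleen vs thymus (limma-trend adjusted p 0.130 and 0.151). With all libraries the log2 fold changes were 0.98 (95% interval -1.03 to 3.00) and 0.89 (-1.13 to 2.91; limma-trend adjusted p 0.718 and 0.749). On the recovered reads, edgeR gave -0.17 and -0.34 for these, so the direction depended on the method.

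Lamp1 (ENSMUSG00000031447, chromosome 8, 13159161 to 13175338, plus strand) encodes an abundant glycoprotein of the granule membrane, which reaches the cell surface during degranulation. It was at 1661, 1526 and 1250 in thymus, at 2312, 2138 and 2266 in liver and at 3011, 1992 and 1846 in spleen. All 6 liver and spleen libraries were above the 3 thymus libraries. The means were 1479 ± 210, 2239 ± 90.3 and 2283 ± 635 (SD, n = 3 each), 1.51-fold higher in liver and 1.54-fold higher in spleen than in thymus. The log2 fold changes were 0.61 in liver vs thymus (SE 0.39, 95% interval -0.23 to 1.44, limma-trend adjusted p 0.561) and 0.60 in spleen vs thymus (-0.23 to 1.43, limma-trend adjusted p 0.568). These were 0.31 and 0.28 above the median of all genes. Spleen replicate 1, the library with the most myeloid and B cell RNA, was the highest, and without it the latter fold change was 0.38. Pecam1 and Cpa3 separated the thymus from the liver and spleen libraries in the same direction as Lamp1. The other genes of their cell type lists, among them Cdh5, Kdr, Mcpt4 and Kit, were absent from the deposited table. The part of other cells in the Lamp1 values was not tested. Of the exonic bases of Lamp1, 9.31% are also exonic in Grtp1 on the opposite strand, and whether counting used strand is not given in the sources used here.

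Lyst (ENSMUSG00000019726, chromosome 13, 13590397 to 13778803, plus strand), the regulator of granule size that is mutated in beige mice, was at 23433, 15878 and 11810 in thymus. It was at 36514, 36578 and 26200 in liver and at 22518, 27291 and 25165 in spleen. Each liver library was above each thymus library, whereas thymus replicate 1 exceeded spleen replicate 1. The means were 17040 ± 5898, 33097 ± 5973 and 24991 ± 2391 (SD, n = 3 each), 1.94-fold higher in liver than in thymus. The log2 fold change between liver and thymus was 0.998 (SE 0.24, 95% interval 0.49 to 1.501, unadjusted p 0.000718, limma-trend adjusted p 0.111), or 0.70 above the median of all genes. It ranked as number 85 of 13309 genes by p. It passed in 2 of 23 alternatives. These were the fit without thymus replicate 1, at 1.26 with a limma-trend adjusted p of 0.0231, and that with array weights, at 1.14 with 0.0365. Over all alternatives the adjusted p ran up to 0.497. In spleen vs thymus the log2 fold change was 0.61 (0.10 to 1.11, limma-trend adjusted p 0.333) and in liver vs spleen 0.39 (-0.11 to 0.90, limma-trend adjusted p 0.9999).

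**Figure D2:**
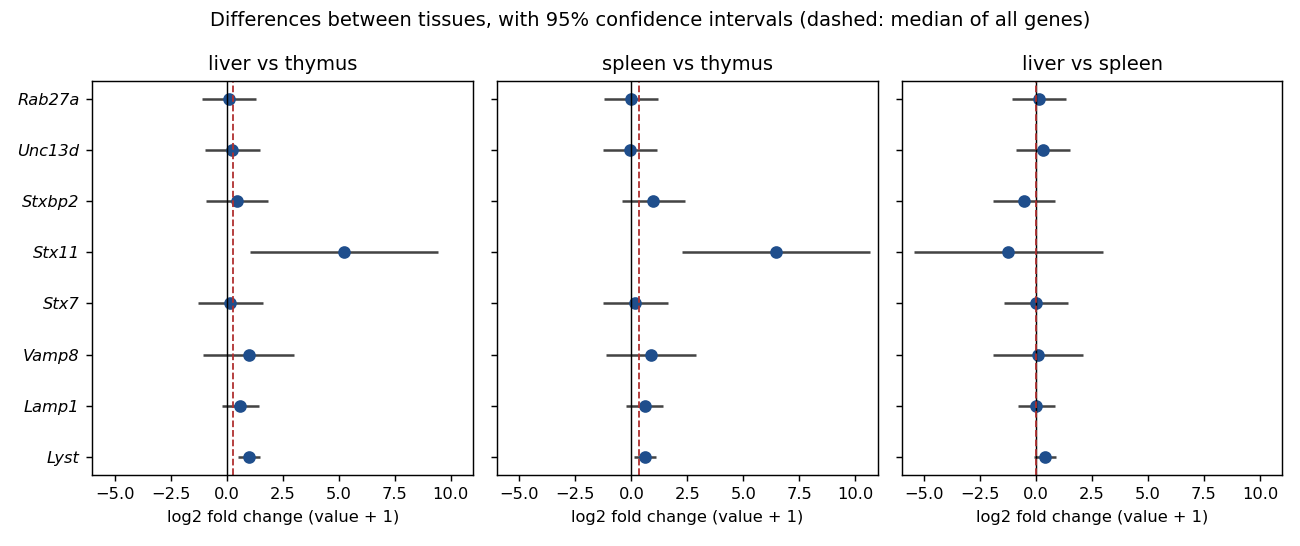
Log2 fold change on the log2(value + 1) scale (points) with its 95% confidence interval (lines) for each member in the 3 comparisons; the solid line is 0 and the dashed line the median of all 13309 genes. The intervals of Stx11 and Lyst exclude 0 in both thymus comparisons before adjustment, and all intervals in liver vs spleen include 0.

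Levels of different genes were compared per kilobase of annotated exon. Lyst was the highest member at 1434 normalised reads per kilobase over all 9 libraries, above 96.6% of the genes in the table by this measure, and Lamp1 followed at 748. A group of 4 lay close together, with Unc13d at 402, Rab27a at 397, Stxbp2 at 379 and Vamp8 at 350. Stx7 was at 183 and Stx11 lowest at 66.5. By tissue, from thymus to liver to spleen, Lyst had 976 ± 338, 1896 ± 342 and 1431 ± 137 per kilobase and Lamp1 553 ± 78.4, 837 ± 33.8 and 853 ± 237 (SD, n = 3 each). Stx11 was at 7.06 ± 12.2, 85.6 ± 74.7 and 107 ± 58.8. Lyst and Lamp1 thus did not overlap within their SD in any tissue. The 4 genes in the middle differed by less than their spread in thymus, where Stxbp2 was at 341 ± 302 and Unc13d at 452 ± 419 per kilobase (SD, n = 3 each), and their SD ranges also overlapped in liver. In spleen, Stxbp2 was the highest of them at 469 ± 47.9 per kilobase, beyond the SD ranges of Unc13d (332 ± 76.5) and Vamp8 (307 ± 63.997). Its range there just met that of Rab27a (356 ± 68.2; SD, n = 3 each). The annotated exon length counts all isoforms, and which of them these cells use is unknown.

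The median SD of log2(value + 1) over the 8 members was 1.21 in thymus, 0.50 in liver and 0.31 in spleen, beside 1.34, 0.76 and 0.77 over all genes tested. Many of those are lower than the members. Over the 9592 genes with a mean of at least 100, which include all 8 members, the medians were 1.13, 0.57 and 0.58. Against these, the members were slightly more variable in thymus and less so in liver and spleen. Each member but Lamp1 had its largest SD in thymus. Lamp1 had an SD of 0.21 in thymus, the smallest of the members there, 0.059 in liver and 0.38 in spleen. Stx11 had the largest SD in thymus, at 3.73. The thymus libraries were not displaced in 1 direction. Replicate 1 was the highest thymus library in 5 of 8 members (Rab27a, Unc13d, Stx7, Lamp1 and Lyst) and replicate 3 in the other 3 (Stx11, Stxbp2 and Vamp8). Over the 9 libraries, the Pearson correlation of log2(value + 1) between members ran from -0.65 (Unc13d and Vamp8) to 0.81 (Stx11 and Vamp8), with a median of 0.22 over 28 pairs. Stxbp2 had an r of 0.69 with each of Stx11 and Vamp8, and Lamp1 and Lyst one of 0.69 with each other. These describe 9 libraries that share tissue and depth differences.

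**Figure D3:**
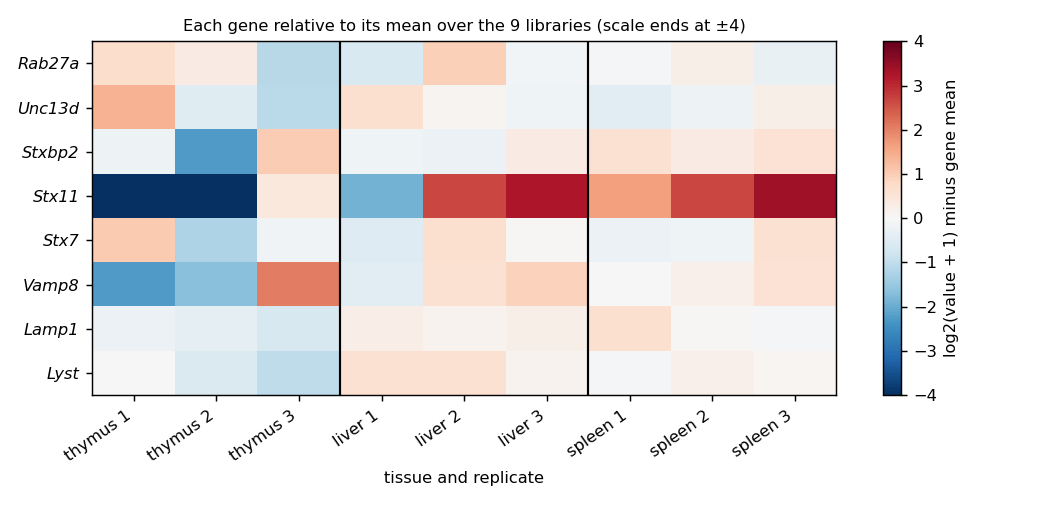
Level of each member in each library as log2(value + 1) minus the mean of that gene over the 9 libraries; red is above and blue below the mean, the colour scale ends at ±4, and vertical lines separate the tissues. Stx11, Vamp8 and Stxbp2 are low in thymus replicate 2 and above their mean in thymus replicate 3, where Rab27a, Unc13d, Lamp1 and Lyst are at their lowest.

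For each member, the gene with the most similar profile over the 9 libraries was taken among 9591 genes with a mean of at least 100. It was Eif1b for Rab27a (Pearson r 0.91), Zfp874b for Unc13d (0.96), Cbx6 for Stx11 (0.98) and Acad11 for Stxbp2 (0.98). For Lamp1 it was Trim42 (0.96), for Vamp8 Vezt (0.98), for Stx7 Wdr24 (0.95) and for Lyst Arih2 (0.94). Among so many genes and 9 libraries, values of this size are a description of likeness only. Arih2 was at 1018, 445 and 422 in thymus, 1396, 1305 and 861 in liver and 886, 1324 and 952 in spleen, so it shared with Lyst the low values of thymus replicates 2 and 3.

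The rest of the pathway was described with 9 further lists, in which 108 of 126 genes were measured and tested. Liver vs thymus called 0 of the 108. Spleen vs thymus called 2, both lower in spleen (0.21% of all genes were lower), and liver vs spleen called 1, higher in liver (0.015% of all genes). All 3 of these calls were granule cargo. The median log2 fold change of the 108 genes was 0.03 in liver vs thymus and 0.13 in spleen vs thymus, below the 0.29 and 0.33 of all genes. Where no gene of a list passed, the gene with the smallest F-test p is given.

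Of the 20 other SNAREs and SNARE-disassembly factors, 0 passed in any comparison. Stx3, a plasma membrane syntaxin, was at 0.0211, 1.19 and 0.0440 in thymus, at 250, 128 and 37.3 in liver and at 32.7, 11.6 and 6.51 in spleen. The 3 tissues did not overlap (liver vs thymus limma-trend adjusted p 0.177). However, the thymus values were below that of 3 reads (3.39 to 3.81). Liver replicate 3, at 37.3, was above spleen replicate 1, at 32.7, by less than its value of 1 read, 6.04. Of 12 measured Rab27 effectors and Rab proteins, 0 passed. Rabggtb, a subunit of the enzyme that attaches the lipid anchor to Rab proteins, averaged 2987 ± 956 in thymus, 841 ± 555 in liver and 1004 ± 426 in spleen (SD, n = 3 each). Its values in thymus were above those of both other tissues (limma-trend adjusted p 0.223 and 0.351). Of 11 Sec1/Munc18 and priming genes, 0 passed, and Vps33a had the smallest F-test p, 0.218 before adjustment.

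Among 5 measured genes of calcium entry and sensing, 0 passed. Stim2, a calcium sensor of the endoplasmic reticulum, averaged 513 ± 272 in thymus, 1387 ± 476 in liver and 1091 ± 48.6 in spleen (SD, n = 3 each), with thymus below both others (limma-trend adjusted p 0.317 and 0.426). Of 19 granule biogenesis genes, 0 passed. Ap3b1, a subunit of the AP-3 adaptor that sorts cargo to lysosome-related organelles, was at 2064 ± 1522, 4012 ± 1556 and 4268 ± 1282 (SD, n = 3 each), with overlap. Of 6 measured relatives of Lyst with a BEACH domain, 0 passed. Nbeal2 averaged 12926 ± 3127 in thymus, 11282 ± 1876 in liver and 8533 ± 1682 in spleen (SD, n = 3 each), with overlap. The mean of Nbeal2 was highest in thymus, where that of Lyst was lowest. Of 15 granule transport genes, 0 passed, and Cdc42, a GTPase of cell polarity, was higher in all thymus libraries, at 17057 ± 2625 against 11780 ± 1028 and 10480 ± 1004 (SD, n = 3 each; limma-trend adjusted p 0.357 and 0.211). Of 8 lysosomal membrane genes, 0 passed. Laptm5 averaged 17818 ± 2302 in thymus, 27064 ± 3316 in liver and 17047 ± 4238 in spleen (SD, n = 3 each), with liver above both others (limma-trend adjusted p 0.295 against thymus and 0.9999 against spleen).

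**Figure D4:**
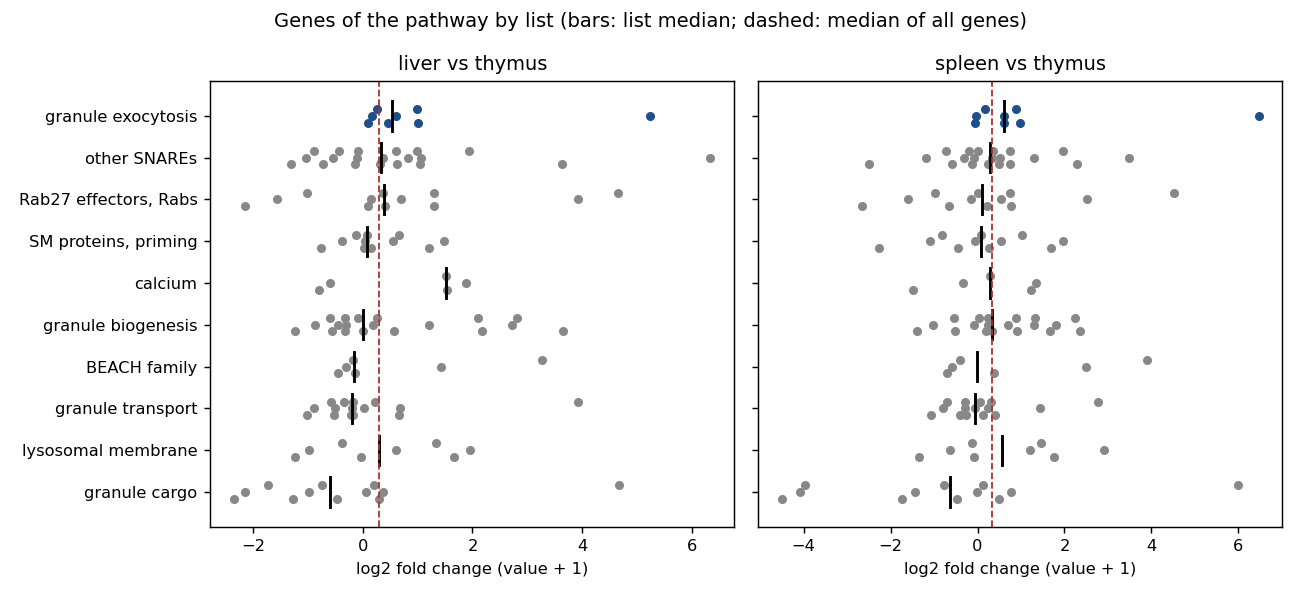
Log2 fold change on the log2(value + 1) scale of each tested gene by list in liver vs thymus and spleen vs thymus; black bars are list medians, dashed lines the median of all genes, blue points the 8 members, and points are spread vertically only for legibility. The granule exocytosis genes lie at medians of 0.53 and 0.60, and the genes of the granule cargo list at -0.61 and -0.62.

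The list of granule cargo and associated genes had the only calls of the pathway. Its 12 measured genes were Prf1, Gzma, Gzmb, Gzmc, Gzmm, Srgn, Ctsc, Ctsw, Ctsl, Nkg7, Serpinb9 and Fasl. Of these, 2 fell in spleen vs thymus and 1 rose in liver vs spleen. Gzmb, encoding granzyme B, fell from 15591 ± 1817 in thymus to 786 ± 527 in spleen (SD, n = 3 each; log2 fold change -4.50, limma-trend adjusted p 6.46e-05). Gzma, encoding granzyme A, fell from 4770 ± 2043 to 350 ± 287 (SD, n = 3 each; log2 fold change -3.98, limma-trend adjusted p 0.0412). Gzmb was higher in liver, at 8048 ± 2173, than in spleen (SD, n = 3; log2 fold change 3.51, limma-trend adjusted p 0.00297). The fall of Gzmb passed in 23 of 23 alternatives and its difference between liver and spleen in 20 of 23. The latter was lost without the mean-variance trend (adjusted p 0.163 by limma), without liver replicate 1 and without liver replicate 3. The fall of Gzma passed in 12 of 23 and was lost without any 1 of the thymus or spleen libraries or liver replicate 3 (limma-trend adjusted p up to 0.196). It was also lost with no filter on low values, with only the 6 samples compared, without the trend and with edgeR. The median log2 fold change of the cargo list was -0.62 in spleen vs thymus, where that of the 8 exocytosis genes was 0.60. The difference between these lists was not tested.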

How the data were processed

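RNA-seq libraries of iNKT1 cells were prepared from ultralow input and sequenced for 76 cycles, per the labels' protocols. The submitters' processing notes name Trimmomatic 0.33, TopHat2 2.1.0, HTSeq 0.6.1, edgeR and the mm10 build, with no role or order. The deposited values are a signal per gene, not whole numbers, and how the authors scaled them is not given in the sources used here. In each library low values lie on equal steps, which were used to recover reads. Among 15737 values of up to 20 reads, the share within 0.1 of a whole number was 93.5%, from 73.1% in liver replicate 3 to 100%. All per-sample columns were used. The column of thymus replicate 2 has the prefix WTf where the others have WT, which the labels do not explain, and it was matched to its sample by tissue and replicate number.

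The test was limma-trend (limma 3.58.1, R 4.3.3) on log2(value + 1), in 1 fit of 9 libraries by tissue, after removing genes that did not reach 1 in 3 or more libraries. P-values are two-sided with Benjamini-Hochberg adjustment. Alternatives were 3 scalings, 2 pseudocounts, 2 filters, the samples fitted, weights, the trend, a replicate block, a term for the libraries numbered 2, each library left out, and edgeR 4.0.16 and DESeq2 1.42.0 on the recovered reads. edgeR called 22 genes in liver vs thymus, 37 in spleen vs thymus and 2 in liver vs spleen. The fit was tested on 5 simulated tables, each with 200 genes raised in liver. In liver vs thymus it called 52.2% of those raised 4-fold, 95.5% of those raised 16-fold and 99.7% of those raised 64-fold. Gene positions and exon lengths came from GENCODE M21 (GRCm38, equal to mm10) and promoters from RefSeq. Symbols matched 13359 of 14004 identifiers. Members and lists were chosen with earlier results of these data known. Named genes are all members, the called genes of each list (at most 4) or else the 1 with the smallest F-test p, and the most similar gene of each member.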

Additional observations from a re-analysis of the deposited data

How the results depend on the processing

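No member was called in the main comparisons. One was called, Lyst in liver vs thymus, with array weights, and leaving out 1 library gave 0 to 1 members in liver vs thymus and in spleen vs thymus. Of 552 fold changes of members under the alternatives, 497 kept direction and call, 3 gained a call and 52 changed sign; 24 of the latter came from leaving out 1 library. The cause was not tested.

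Under TMM scaling, Rab27a, Unc13d and Stx7 were at -0.19, -0.027 and -0.11 in liver vs thymus, and Stx7 at -0.13 in spleen vs thymus and 0.014 in liver vs spleen. Median-of-ratios scaling gave Rab27a -0.034 in liver vs thymus. Equal totals gave Rab27a 0.14 and Unc13d 0.10 in spleen vs thymus and Lamp1 -0.013 in liver vs spleen. Array weights gave Rab27a 0.30 and Unc13d 0.32 in spleen vs thymus, Stxbp2 -0.028 in liver vs thymus and Stx7 0.15 in liver vs spleen. edgeR gave Unc13d -0.11, Stxbp2 -0.061, Vamp8 -0.17 and Stx7 -0.056 in liver vs thymus, Vamp8 -0.34 and Stx7 -0.050 in spleen vs thymus, and Lamp1 -0.040 in liver vs spleen. DESeq2 gave, in the same order, -0.14, -0.066, -0.17 and -0.085, then -0.38 and -0.10, then -0.013, and Stx7 0.018 in liver vs spleen.

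Leaving out 1 library, the ranges in liver vs thymus were -0.45 to 0.46 for Rab27a, -0.26 to 0.98 for Unc13d, -0.44 to 1.1996 for Stxbp2 and -0.39 to 0.75 for Stx7. In spleen vs thymus they were -0.58 to 0.33 for Rab27a, -0.58 to 0.66 for Unc13d and -0.38 to 0.76 for Stx7. In liver vs spleen they were -0.31 to 0.47 for Rab27a, -2.18 to 0.38 for Stx11, -0.13 to 0.22 for Lamp1, -0.19 to 0.50 for Vamp8 and -0.30 to 0.27 for Stx7.

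With the replicate number as a block, 0 members were called in each comparison. The labels give the numbers no shared origin. The deviations of same-numbered libraries correlated at -0.00073 to 0.0891, and those of libraries with different numbers at -0.0866 to 0.0484. In every library the mean correlation was higher with its own number than with other numbers, and 4 of 9 libraries correlated best with their own number. Xist was also higher in all libraries numbered 2 than in the others. What libraries of the same number share was not tested. The block moved the call count of all genes in liver vs spleen from 2 to 4. Among all genes, DESeq2 called 465, 515 and 22 in the 3 comparisons and 363 in the F-test, where limma-trend called 43, 53, 2 and 46. On only the 6 samples compared the counts were 16, 11 and 7. edgeR called 22, 37 and 2, and 30 in the F-test. Array weights gave 18 in liver vs spleen and 74 in the F-test. Leaving out 1 library gave 7 to 155 in liver vs thymus, 9 to 134 in spleen vs thymus, 0 to 3 in liver vs spleen and 18 to 75 in the F-test. Both thymus comparisons and the F-test were highest without thymus replicate 3. In liver vs thymus, 27 calls were higher in liver and 16 lower, and TMM scaling gave 19 and 25. In spleen vs thymus they were 25 and 28, TMM scaling gave 27 and 65, and equal totals gave 22 and 16. Without the mean-variance trend the splits were 35 and 5, then 39 and 9.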

Other observations

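A few genes of the surrounding pathway had values that separated some of the tissues without passing the threshold. They were picked after their values were seen, so the values describe these libraries only. Rab32, a GTPase of lysosome-related organelles, was at 15.7, 0.0273 and 32.7 in thymus, 258, 264 and 133 in liver and 52.1, 47.4 and 41.3 in spleen, with the 3 tissues apart (liver vs thymus limma-trend adjusted p 0.309). Stx12, an endosomal syntaxin, was at 285 ± 168 in thymus, below all libraries of liver (981 ± 509) and spleen (955 ± 280; SD, n = 3 each; limma-trend adjusted p 0.324 and 0.315). Ctsl, encoding cathepsin L, had 0, 2 and 0 reads in the thymus libraries, 118, 24 and 4 in liver and 423, 113 and 59 in spleen. Against thymus, its limma-trend adjusted p was 0.316 for liver and 0.194 for spleen. Liver replicate 3 was sequenced less than the others, which bears on these counts. Myo5a, a myosin that carries organelles along actin, went the other way, from 3470, 872 and 535 in thymus to 207, 114 and 274 in spleen (limma-trend adjusted p 0.23). Its liver values, 413, 570 and 268, overlapped both (limma-trend adjusted p 0.479 against thymus).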
